A study of Rattus norvegicus with 12 samples.

Results

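The matrix metalloproteinases (MMPs), the ADAMTS proteases (secreted enzymes with a disintegrin and thrombospondin motifs) and the tissue inhibitors of metalloproteinases (TIMPs) were followed in bone beside rat dental mini-implants. Members were chosen by symbol alone, as every gene of the deposited expression table named Mmp, Adamts or Timp plus a number. This gave 45 of 33801 genes, made up of 23 MMPs, 19 ADAMTS proteases and 3 TIMPs (Timp1, Timp3 and Timp4). Timp2 was not analysed here. The rats were wild type, and the labels give no strain, sex or age. Mini-implants stood at the site of the maxillary first molar and were made of titanium (cpTi) or of the zirconium-based alloy Zr58Cu25Al14Nb3, called Nb3 alloy below. They were loaded cyclically for 2 weeks or left static, and the bone within a diameter of 4 mm was taken for RNA sequencing of polyadenylated RNA. The 12 libraries form 4 groups of 3: non-loaded cpTi, loaded cpTi, non-loaded Nb3 alloy and loaded Nb3 alloy. All 4 groups carried an implant, so no group shows bone without one. The labels do not state whether the libraries of a group came from different animals, and the p-values below therefore speak only of the spread among these libraries.

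MMPs and ADAMTS proteases are zinc enzymes that cut the extracellular matrix. Collagenases open fibrillar collagen, gelatinases degrade the denatured chains and basement membranes, stromelysins cut proteoglycans and activate other MMPs, and membrane-type MMPs work at the cell surface. Most are made as inactive proenzymes, and TIMPs bind their active sites. Among the ADAMTS proteases, some trim procollagens so that fibrils can assemble, while the aggrecanases cut aggrecan and versican. In bone, Mmp13 is known as the collagenase of osteoblasts and hypertrophic chondrocytes, Mmp9 as a product of osteoclasts and neutrophils, Mmp8 as a neutrophil granule enzyme, and Mmp2 and Mmp14 as products of stromal and bone-forming cells.

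Values are FPKM, fragments scaled by gene length and by a size for each library, so levels can be compared between genes. Reads on genes numbered 12.9 to 22.3 M per library. The library size recovered from the values was smallest (13.4 M) and largest (18.1 M) in the same libraries as these reads, but was not proportional to them. It was 18.1 M for loaded Nb3-alloy replicate 2, with 22.3 M reads, and 17.1 M for non-loaded Nb3-alloy replicate 2, with 15.3 M reads. The loaded Nb3-alloy libraries held 11.97%, 24.3% and 11.3% mitochondrial reads (replicates 1, 2 and 3), against 4.31% to 6.86% in the other 9, and replicate 2 also had the most reads. Bone-forming cells were present throughout: the summed level of 9 osteoblast markers lay between 3638 and 19523 FPKM, and none of them was at 0 in all 3 libraries of a group. Neutrophil markers were summed over 13 genes and lay at 145 to 526 FPKM in loaded Nb3 alloy, against 6401 to 21954 FPKM elsewhere, with Ltf at 0 throughout loaded cpTi and non-loaded Nb3 alloy. The summed level of 11 fibroblast and ligament markers went the other way, with 2595 to 4155 FPKM in loaded Nb3 alloy and 260.3 to 1124 FPKM elsewhere. Other marker lists also moved with loading beside the Nb3 alloy: all 7 erythroid (median log2 difference -6.30) and all 5 B cell markers (-2.50) were lower, while all 7 smooth muscle and pericyte (2.36), all 5 Schwann cell (1.93) and 5 of 7 endothelial markers (1.60) were higher. The part of these cell types in the member differences was not tested. In bulk tissue, fewer cells of a type and less RNA per cell cannot be told apart.

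Of the 45 members, 34 reached 1 FPKM in at least 3 libraries and were tested (16 MMPs, 15 ADAMTS proteases and 3 TIMPs). Differences were tested with limma on log2(FPKM + 1) over all 15268 genes that passed this filter, and the threshold for a call was 0.05 on the p adjusted by Benjamini and Hochberg. Loading beside the Nb3 alloy came with calls for 23 of the 34 members, 21 higher and 2 lower. In that comparison 45.8% of all tested genes were called (20.7% higher, 25.2% lower). The median log2 difference was 0.92 over the 34 members and -0.02 over all tested genes. When the libraries were scaled to total reads instead, the split of called genes moved from 3156 higher and 3840 lower to 2266 higher and 4670 lower, the median of all genes shifted to -0.17, and 16 members were called higher and 2 lower. Without replicate 2 of the loaded Nb3-alloy group, 23 members were called, 22 of them shared with the full set.

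**Figure D1:**
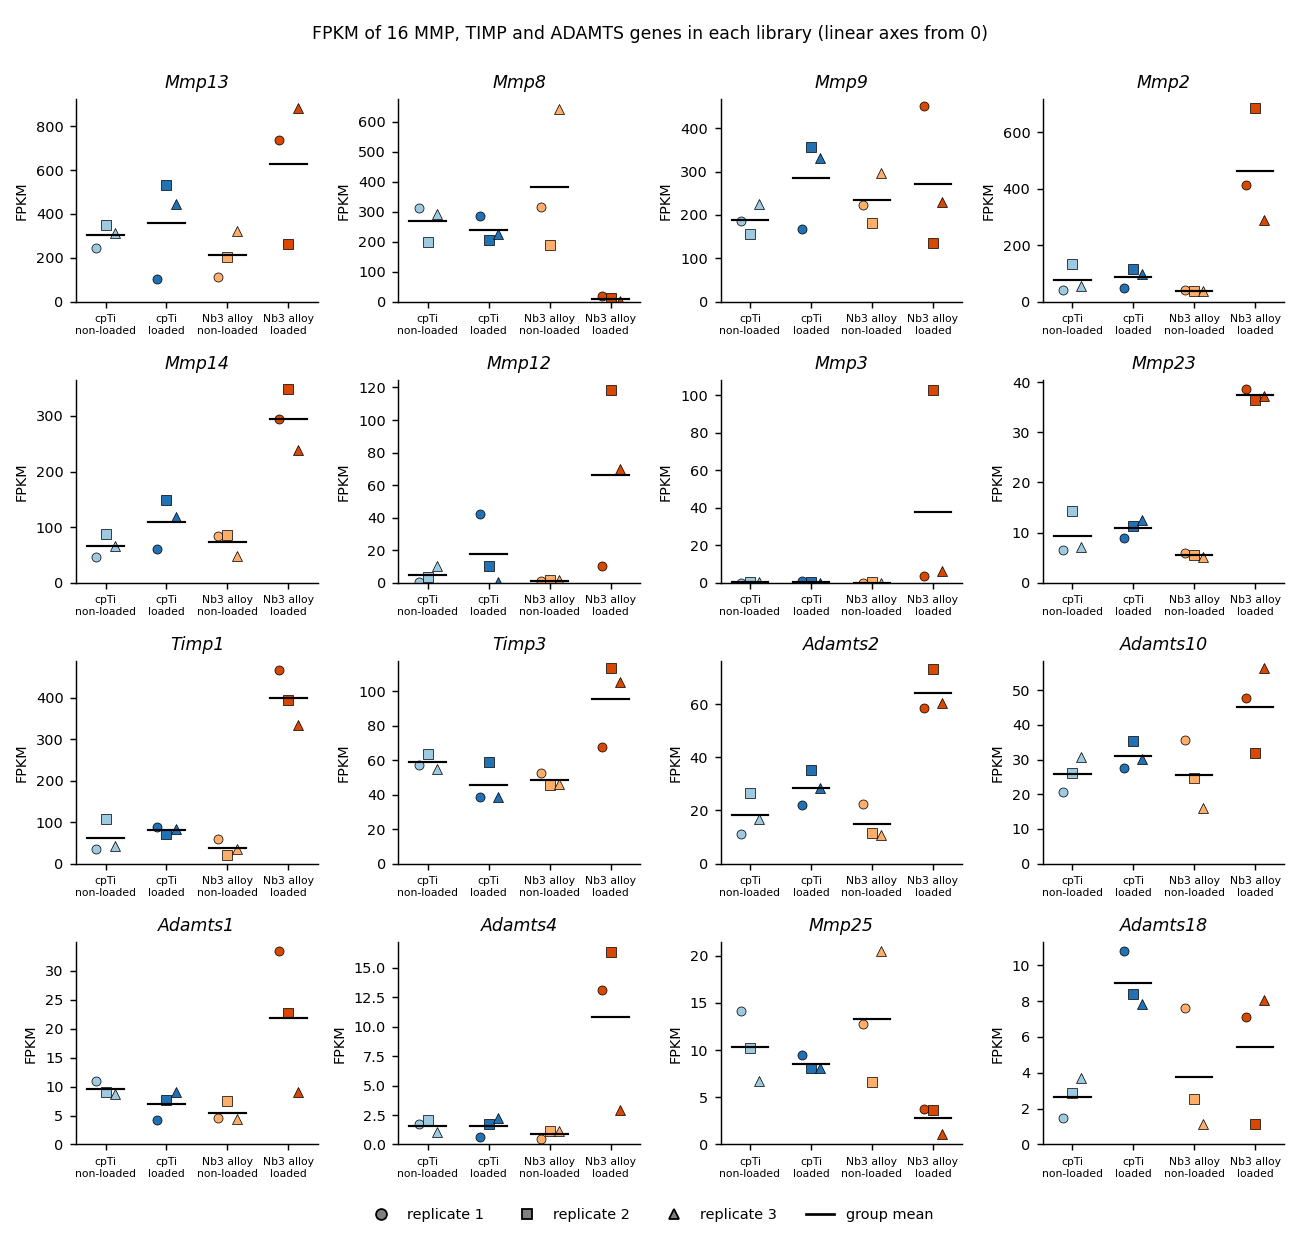
FPKM of 16 members (linear axes from 0) in every library by group, with the group mean as a line and the replicate number as the symbol. Loaded Nb3-alloy libraries stand above all others for Mmp2, Mmp14, Mmp23, Timp1, Timp3 and Adamts2, and below all others for Mmp8 and Mmp25.

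Mmp13, Mmp9 and Mmp8 had the highest mean levels of the MMPs in each of the other groups. The collagenase Mmp13 (ENSRNOG00000008478) stood at 739, 263 and 884 FPKM in loaded Nb3 alloy and at 113, 202 and 321 FPKM in non-loaded Nb3 alloy. In cpTi the values were 103, 531 and 447 FPKM with loading and 243, 351 and 315 FPKM without. The groups overlapped in both materials, because replicate 2 of loaded Nb3 alloy and replicate 1 of loaded cpTi were low. The log2 difference with loading beside the Nb3 alloy was 1.51 (SE 0.64) and was not called (adjusted p = 0.0739 by limma). Left without the low replicate 2, the same difference was 2.05 and was called (adjusted p = 0.0239 by limma).

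Mmp8 (ENSRNOG00000009907), the neutrophil collagenase, was far lower with loading beside the Nb3 alloy. It stood at 17.2, 10.9 and 0.877 FPKM in loaded and at 316, 189 and 642 FPKM in non-loaded Nb3 alloy. In cpTi it kept to 284, 205 and 225 FPKM with loading and 311, 199.7 and 291 FPKM without. The loaded Nb3-alloy libraries thus lay below all 9 others, and the 9 others overlapped. The fitted log2 difference of Mmp8 was -5.51 (SE 0.71, adjusted p = 0.000128 by limma). All 12 tested neutrophil markers were lower in the same comparison, with a median log2 difference of -5.81, and the part of neutrophil content in the Mmp8 result was not tested.

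Gelatinase Mmp9, also known from neutrophils, was not called. It stood at 451, 134 and 229.8 FPKM in loaded and at 224, 181 and 296 FPKM in non-loaded Nb3 alloy, at 169, 357 and 331 FPKM in loaded cpTi, and at 185, 156 and 224 FPKM in non-loaded cpTi. The 4 groups overlapped, and the loading difference beside the Nb3 alloy was 0.07 (SE 0.42, adjusted p = 0.901 by limma). Its level in the loaded Nb3-alloy replicates followed the order of the summed osteoclast markers, which were 4459, 936 and 2893 FPKM in replicates 1, 2 and 3.

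Mmp2, the gelatinase of stromal cells, rose with loading beside the Nb3 alloy. It stood at 412, 684 and 288 FPKM in loaded Nb3 alloy and at 42.4, 35.9 and 39.2 FPKM in non-loaded Nb3 alloy. The cpTi libraries held 46.7, 116 and 96.5 FPKM with loading and 40.5, 134 and 54.0 FPKM without. No library of another group reached the lowest loaded Nb3-alloy value. The log2 difference was 3.44 (SE 0.46, adjusted p = 0.000172 by limma).

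These shifts changed the make-up of the MMP signal. The summed FPKM of the 23 MMPs was 1865 ± 137 in loaded Nb3 alloy (SD, n = 3) and 984 ± 358 in non-loaded Nb3 alloy. Mmp8 made up 0.506 ± 0.413% of that sum with loading and 36.7 ± 10.2% without. Mmp2 made up 25.0 ± 12.1% and 4.28 ± 1.28%, and Mmp14 15.9 ± 3.47% and 8.40 ± 4.41%. The share of Mmp13 was 33.4 ± 17.1% and 21.5 ± 7.20%, a difference within the spread of the replicates. Replicate 2 of loaded Nb3 alloy was the library in which Mmp2 led, at 38.8% of the sum, while Mmp13 led in replicates 1 and 3 at 36.6% and 48.8%.

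**Figure D2:**
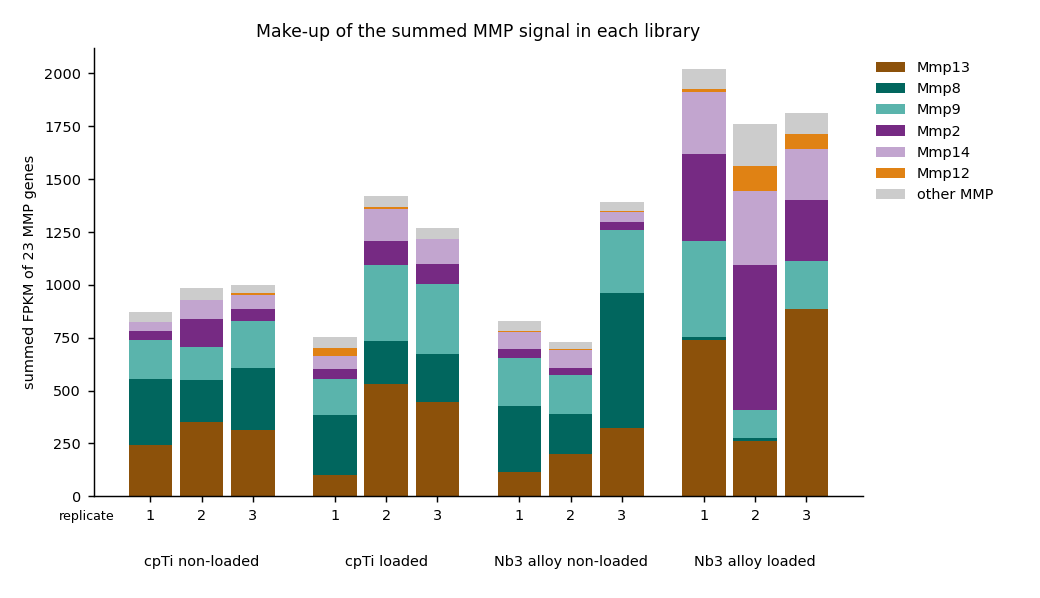
Summed FPKM of the 23 MMP genes in each library, stacked by gene, with replicate numbers under the bars. The Mmp8 layer all but disappears in the 3 loaded Nb3-alloy bars, where the Mmp2 and Mmp14 layers are widest.

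Membrane-type MMPs cut matrix at the cell surface, and Mmp14 also activates the proenzyme of Mmp2. Of 6 tested members, 4 were higher and 1 lower with loading beside the Nb3 alloy, against 20.7% and 25.2% of all tested genes. Mmp14 stood at 295, 349 and 239.6 FPKM in loaded and at 83.7, 85.4 and 47.4 FPKM in non-loaded Nb3 alloy, at 59.8, 149 and 118 FPKM in loaded cpTi, and at 46.3, 87.3 and 65.8 FPKM in non-loaded cpTi. It lay highest in all 3 loaded Nb3-alloy libraries and rose by a log2 difference of 2.05 (SE 0.36, adjusted p = 0.00088 by limma). Its replicates within that group differed by 1.46 times from lowest to highest, against 3.35 times for Mmp13.

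Mmp15, a relative of Mmp14, was a low-level gene with a similar direction. It stood at 8.49, 20.1 and 12.001 FPKM in loaded and at 2.53, 2.36 and 1.12 FPKM in non-loaded Nb3 alloy, and at 2.43 to 7.52 FPKM in the cpTi libraries. It rose by 2.23 (SE 0.37, adjusted p = 0.000618 by limma). Mmp17 and Mmp24 were called at 0.99 and 0.52, from means of 2.88 and 3.04 FPKM in loaded Nb3 alloy. The Mmp24 call was lost in 7 of 15 alternative fits. Among these, it was lost when any of 4 libraries was left out, with differences of 0.34 to 0.57 and adjusted p of 0.0553 to 0.12 (without loaded Nb3-alloy replicate 1 or 3, or non-loaded Nb3-alloy replicate 1 or 3). Mmp16 overlapped between the groups, with 11.4, 4.51 and 11.0 FPKM in loaded and 12.9, 4.22 and 3.49 FPKM in non-loaded Nb3 alloy (log2 difference 0.44, adjusted p = 0.441 by limma).

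Mmp25 is the membrane-type enzyme known from neutrophils, and it was the only membrane-type member that fell. It stood at 3.74, 3.70 and 1.13 FPKM in loaded and at 12.8, 6.60 and 20.5 FPKM in non-loaded Nb3 alloy, and at 6.74 to 14.1 FPKM in cpTi. Its log2 difference was -1.86 (SE 0.40, adjusted p = 0.00321 by limma). Replicate 3 of loaded Nb3 alloy was lowest for Mmp25, for Mmp8 and for the summed neutrophil markers (145 FPKM, against 446 and 526 in replicates 1 and 2).

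Mmp12, the macrophage elastase, and Mmp3, stromelysin-1, had the largest log2 rises of the 34 tested members, and a wide replicate spread. Mmp12 stood at 10.4, 119 and 69.9 FPKM in loaded and at 0.930, 1.48 and 1.34 FPKM in non-loaded Nb3 alloy. In cpTi it ranged from 0.177 to 42.04 FPKM with loading and from 0.0943 to 10.5 FPKM without. One loaded cpTi library, at 42.04 FPKM, therefore lay above replicate 1 of loaded Nb3 alloy. The difference of 4.36 (SE 1.29) was called (adjusted p = 0.0179 by limma). It was 3.67 and not called without loaded Nb3-alloy replicate 2 (adjusted p = 0.0724), and 4.05 and not called without replicate 3 (adjusted p = 0.0544). Of 9 macrophage markers, 2 were higher and 1 lower in this comparison, with a median of 0.16. The shares over all tested genes were 20.7% higher and 25.2% lower.

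Mmp3 stood at 3.58, 103 and 6.001 FPKM in loaded Nb3 alloy, at 0, 0.0962 and 0 FPKM in non-loaded Nb3 alloy, and below 1 FPKM in every cpTi library. All 3 loaded Nb3-alloy libraries were higher than the other 9, but replicate 2 held 3393 of the group's reads and replicates 1 and 3 held 108 and 190. The difference was 3.86 (SE 0.89, adjusted p = 0.00459 by limma), and limma-voom on the reads did not call it (adjusted p = 0.14). Mmp3 was the 1 member that passed the filter only through the loaded Nb3-alloy libraries, so its inclusion among the tested genes was tied to that difference. The summed level of 9 epithelial markers was highest in the same library, with 106 FPKM in replicate 2 and 5.58 and 11.6 FPKM in replicates 1 and 3. Skeletal muscle markers were also highest there, at 707 FPKM against 156 and 6.07 FPKM. Only 3 of the epithelial markers passed the filter, and the 1 called with loading beside the Nb3 alloy was lower (-1.90, adjusted p = 6.42e-05 by limma). The part of both marker lists in the Mmp3 level was not tested.

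By contrast, the replicates of Mmp23 lay close together in both Nb3-alloy groups. It stood at 38.8, 36.4 and 37.3 FPKM in loaded and at 5.87, 5.51 and 5.08 FPKM in non-loaded Nb3 alloy, so the replicates of each group differed by at most 1.16 times. The cpTi libraries held 8.92, 11.2 and 12.6 FPKM with loading and 6.48, 14.3 and 7.10 FPKM without. Mmp23 rose by 2.57 (SE 0.23) and had the smallest adjusted p among the 34 members (1.04e-05 by limma). Mmp19, a widely expressed MMP, was similarly even, with 17.2, 18.8 and 15.3 FPKM in loaded and 7.20, 6.78 and 7.28 FPKM in non-loaded Nb3 alloy, and it rose by 1.16 (SE 0.13, adjusted p = 4.41e-05 by limma). Mmp11 (log2 difference 0.57) and Mmp28 (0.00) were not called, with means of 3.73 and 2.33 FPKM in loaded Nb3 alloy. Mmp11 overlaps Chchd10 on the opposite strand, which reached 17.8 FPKM, so without strand its level is uncertain.

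A run of 10 MMP genes lies side by side on chromosome 8, within 358 kb from 4497960 to 4855902 in the deposited table, whose build is not given in the sources used here. Their order is Mmp13, Mmp12, Mmp1b, Mmp3, Mmp1, Mmp10, Mmp8, Mmp27, Mmp20 and Mmp7, with 9 on the plus strand and Mmp1b on the minus strand. Differences with loading beside the Nb3 alloy had opposite signs within the cluster. Mmp12 and Mmp3 were called higher, and Mmp8, which starts 226 kb from the start of Mmp13, was called lower. Both of the higher calls are the less secure ones given above: Mmp3 entered the test only through the loaded libraries, and limma-voom called neither. The annotated spans of Mmp12 and Mmp1b overlap on opposite strands and the strand setting of the counting is not given, but Mmp1b reached only 0.0835 FPKM in any library.

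Among the untested genes of the cluster, stromelysin-2 Mmp10 stood at 0.177, 3.23 and 2.12 FPKM in loaded and at 0, 0 and 0.0831 FPKM in non-loaded Nb3 alloy. Mmp27 went the other way, with 0 reads in all 3 loaded libraries and 64 reads in the non-loaded ones, at 1.13, 0.622 and 0.845 FPKM. Taking 3 reads over the group as the limit that a count of 0 allows, Mmp27 was at least 23.8-fold lower. In a fit without the filter, Mmp10 was called higher (1.28, adjusted p = 0.0257 by limma) and Mmp27 lower (-0.89, adjusted p = 0.00154). The matrilysin gene Mmp7, at the far end of the cluster, stood at 0.480, 0.745 and 0.914 FPKM in loaded and at 0.205, 0.232 and 0.169 FPKM in non-loaded Nb3 alloy, without overlap (0.50 without the filter, adjusted p = 0.0800 by limma). Mmp1 and the enamel enzyme gene Mmp20 had 8 and 15 reads in all 12 libraries together.

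**Figure D3:**
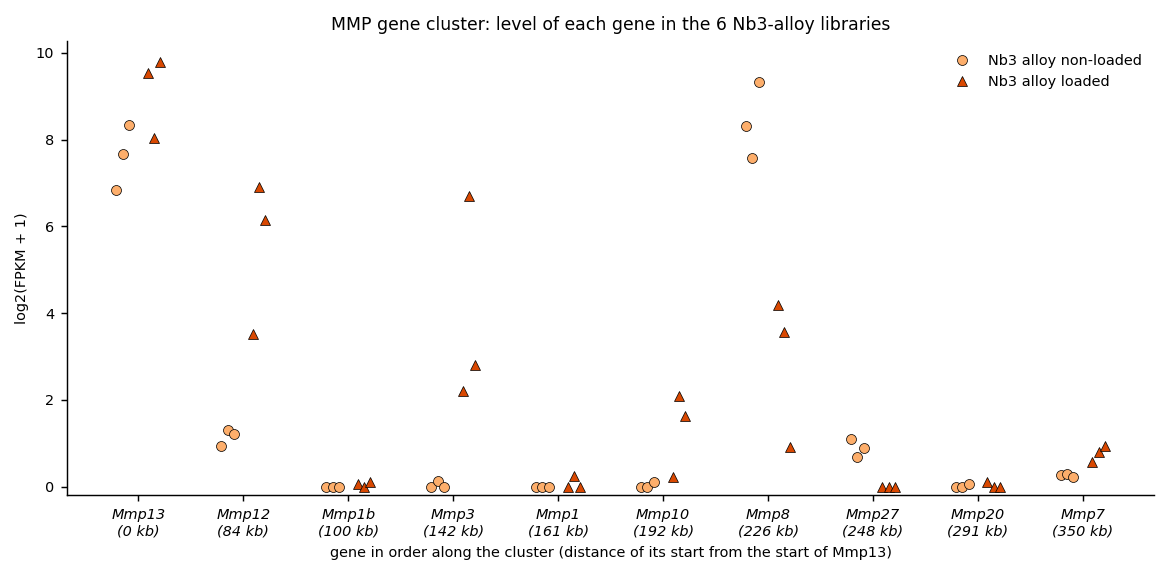
Level of each gene of the chromosome 8 cluster as log2(FPKM + 1) in the 3 loaded (triangles) and 3 non-loaded (circles) Nb3-alloy libraries, in chromosomal order with the distance from the start of Mmp13 in kb. Mmp12, Mmp3, Mmp10 and Mmp7 are higher in loaded libraries, Mmp8 and Mmp27 lower, and Mmp13 overlaps.

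Of these promoters 7 are printed, picked by the values of their genes in the Nb3-alloy libraries. Mmp12, Mmp3, Mmp10 and Mmp7 stood higher with loading, and Mmp8 and Mmp27 stood lower. Mmp13 overlapped between the groups and was not called. Because the genes were picked by their values, the motifs below are no test of the loading difference. Each line gives the 110 bases before the gene's start, 5′ to 3′ on the gene's strand, from RefSeq on GRCr8. The deposited table has other coordinates, with Mmp13 starting at 4497960, and is therefore on another build. Capitals mark the AP-1 motif TGAGTCA or its reverse complement TGACTCA, to which Fos and Jun dimers bind.
Mmp13 (chr8:12782719-12782828, plus strand): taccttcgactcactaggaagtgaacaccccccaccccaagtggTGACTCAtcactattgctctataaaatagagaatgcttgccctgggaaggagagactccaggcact
Mmp12 (chr8:12866542-12866651, plus strand): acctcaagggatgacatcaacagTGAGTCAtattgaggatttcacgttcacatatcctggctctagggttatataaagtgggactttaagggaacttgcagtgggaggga
Mmp3 (chr8:12925171-12925280, plus strand): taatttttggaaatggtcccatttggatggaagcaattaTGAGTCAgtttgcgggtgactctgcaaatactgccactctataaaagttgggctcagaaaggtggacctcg
Mmp10 (chr8:12974597-12974706, plus strand): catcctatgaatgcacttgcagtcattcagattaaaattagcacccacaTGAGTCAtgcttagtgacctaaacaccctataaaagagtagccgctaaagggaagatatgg
Mmp7 (chr8:13132933-13133042, plus strand): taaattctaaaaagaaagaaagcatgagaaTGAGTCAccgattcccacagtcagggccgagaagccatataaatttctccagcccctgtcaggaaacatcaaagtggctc
Mmp8 (chr8:13008780-13008889, plus strand): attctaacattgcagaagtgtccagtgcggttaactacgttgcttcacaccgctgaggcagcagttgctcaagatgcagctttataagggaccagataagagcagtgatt
Mmp27 (chr8:13030642-13030751, plus strand): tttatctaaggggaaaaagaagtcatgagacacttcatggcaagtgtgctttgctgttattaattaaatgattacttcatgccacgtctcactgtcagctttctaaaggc

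The motif starts 66 bases before the gene start in Mmp13, 87 in Mmp12, 71 in Mmp3, 61 in Mmp10 and 80 in Mmp7. In the 300 bases that the table holds for each gene (250 before and 50 after the start), it was found in 6 of the 10 cluster genes, adding Mmp1. Mmp1b and Mmp20, not printed, had no motif, and neither stood lower with loading. Mmp1b had 3 reads in loaded and 0 in non-loaded Nb3 alloy, and Mmp20 averaged 0.0246 and 0.0145 FPKM. The motif was found in 0 of the 24 other members with a promoter in the table and in 5.04% of 27457 genes. Promoters were matched by symbol for 34 of the 45 members. The other 11 are Adamts5, Adamts8, Adamts15, Adamts16, Adamts19, Mmp2, Mmp9, Mmp14, Mmp16, Mmp17 and Mmp19. The motif was 1 of 6 searched in the same 300 bases. TATAAA, on the gene's strand, was in 7 of the 10 cluster genes and 9.67% of all genes. AGGAAG on either strand, which contains the ETS core GGAA, was in 6 of 10 and in 36.3% of all genes. GGAA alone was in 10 of 10 and in 96.1% of all genes, TGTGGT in 2 of 10 and 18.2%, and the NF-kappaB motif in 0 of 10 and 0.0983%. A match shows only that the letters are there, and the missing letters in the Mmp8 and Mmp27 windows say nothing about the binding of a factor.

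All 3 TIMPs in the table were higher with loading beside the Nb3 alloy. Timp1, the inhibitor that is secreted in soluble form by many cell types, stood at 466, 395 and 335 FPKM in loaded and at 58.4, 19.8 and 35.7 FPKM in non-loaded Nb3 alloy. In cpTi it stood at 88.2, 71.4 and 84.1 FPKM with loading and 36.1, 107 and 41.7 FPKM without. The lowest loaded Nb3-alloy library thus held over 300 FPKM and no other library exceeded 107 FPKM. Timp1 rose by 3.47 (SE 0.42, adjusted p = 8.61e-05 by limma). Timp3, which is bound to the matrix and also inhibits several ADAMTS proteases, stood at 67.9, 114 and 105 FPKM in loaded and at 52.8, 45.8 and 46.2 FPKM in non-loaded Nb3 alloy, and at 38.5 to 63.8 FPKM in cpTi. It rose by 0.94 (SE 0.21, adjusted p = 0.00393 by limma).

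Timp4 was low everywhere, with 1.54, 1.95 and 4.14 FPKM in loaded and 1.48, 0.598 and 0.485 FPKM in non-loaded Nb3 alloy. Its difference of 0.90 (SE 0.31, adjusted p = 0.035 by limma) was called, but the call was lost in 7 of 15 alternative fits. Among these were the fits without loaded Nb3-alloy replicate 3 (0.60, adjusted p = 0.131), or non-loaded Nb3-alloy replicate 2 (0.81, adjusted p = 0.098) or 3 (0.76, adjusted p = 0.118). Each TIMP gene overlaps a synapsin gene on the opposite strand, and these reached at most 1.88 FPKM (Syn1), 0.787 FPKM (Syn3) and 1.29 FPKM (Syn2) in any library. Syn2 is near the level of Timp4, and without strand the reads of that pair cannot be told apart.

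The ratio of summed TIMP to summed MMP FPKM was 0.265, 0.290 and 0.245 in the loaded Nb3-alloy libraries. It ranged from 0.0592 to 0.175 in the other 9, so the groups did not overlap. With Mmp8 left out of the sum, the loaded libraries held 0.268, 0.292 and 0.245 and the other 9 ranged from 0.108 to 0.273, and the groups overlapped through replicate 1 of loaded cpTi. The TIMP sum holds no Timp2, and Timp1 made up 79.9 ± 6.27% of it in loaded Nb3 alloy. The ratio compares RNA levels only.

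Procollagen N-proteinases remove the amino-terminal propeptide of fibrillar procollagens. Adamts2 stood at 58.7, 73.1 and 60.6 FPKM in loaded and at 22.3, 11.6 and 10.6 FPKM in non-loaded Nb3 alloy, at 22.1, 35.1 and 28.6 FPKM in loaded cpTi, and at 11.3, 26.5 and 16.9 FPKM in non-loaded cpTi. All 3 libraries of loaded Nb3 alloy exceeded the other 9, and the log2 difference was 2.11 (SE 0.32, adjusted p = 0.000352 by limma). Adamts14 was called at 0.82 (5.67 and 2.71 FPKM on average), a call lost in 5 of 15 alternative fits. Among these were the fits without loaded Nb3-alloy replicate 1 (0.79, adjusted p = 0.0697) or 3 (0.61, adjusted p = 0.0956), or non-loaded Nb3-alloy replicate 3 (0.63, adjusted p = 0.106). Adamts3 was not called and its means were 2.95 and 4.85 FPKM (log2 difference -0.54, adjusted p = 0.158 by limma).

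Of 5 tested aggrecanases, 3 were higher with loading beside the Nb3 alloy and 2 were not called. Among all tested genes 20.7% were higher and 25.2% lower. Adamts1 stood at 33.5, 22.8 and 9.11 FPKM in loaded and at 4.54, 7.50 and 4.46 FPKM in non-loaded Nb3 alloy, with 4.15 to 11.0 FPKM in cpTi. It rose by 1.67 (SE 0.40, adjusted p = 0.00564 by limma), although replicate 3 lay within the range of the cpTi libraries. Adamts4 stood at 13.2, 16.4 and 2.91 FPKM in loaded and at 0.452, 1.11 and 1.15 FPKM in non-loaded Nb3 alloy, and at 0.651 to 2.23 FPKM in cpTi. It rose by 2.40 (SE 0.48, adjusted p = 0.00212 by limma). Its span overlaps Fcer1g, an Fc receptor chain gene of myeloid and mast cells, and Ppox, both on the opposite strand and reaching 83.6 and 41.4 FPKM, so without strand some of its reads cannot be assigned with certainty. Adamts15 rose by 1.46 (SE 0.25, adjusted p = 0.000853 by limma), from 1.23, 0.975 and 0.623 FPKM to 3.71, 7.01 and 2.94 FPKM.

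Adamts5, a major aggrecanase of cartilage, was not called. It stood at 8.06, 9.43 and 7.43 FPKM in loaded and at 6.9997, 5.34 and 8.04 FPKM in non-loaded Nb3 alloy, and overlapped with the cpTi libraries at 4.11 to 11.2 FPKM (log2 difference 0.27, SE 0.25, adjusted p = 0.402 by limma). Adamts9 stood at 6.90, 6.64 and 8.27 FPKM in loaded and at 7.66, 3.16 and 3.49 FPKM in non-loaded Nb3 alloy (0.60, adjusted p = 0.0833 by limma). An unnamed gene on the opposite strand overlaps it and reached 6.38 FPKM, so the assignment of its reads is uncertain too. It was called at 0.93 once the high non-loaded replicate 1 was left out (adjusted p = 0.00381).

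Adamts7 and Adamts12, which both cut cartilage oligomeric matrix protein, rose together. Adamts7 stood at 7.77, 9.56 and 9.53 FPKM in loaded and at 4.44, 2.44 and 2.70 FPKM in non-loaded Nb3 alloy (log2 difference 1.27, SE 0.19, adjusted p = 0.000355 by limma). Adamts12 stood at 5.54, 10.1 and 9.33 FPKM against 3.30, 1.804 and 1.34 FPKM (1.58, SE 0.25, adjusted p = 0.000542 by limma). In both genes the lowest loaded library exceeded the highest of the other 9.

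Adamts10, which takes part in the assembly of fibrillin microfibrils, had the highest mean of the ADAMTS genes over the 12 libraries (31.9 FPKM), just above Adamts2 (31.4 FPKM), which led in loaded Nb3 alloy. Adamts10 stood at 47.7, 31.9 and 56.4 FPKM in loaded and at 35.8, 24.7 and 16.04 FPKM in non-loaded Nb3 alloy, and these groups overlapped. Its call (0.84, SE 0.28, adjusted p = 0.0298 by limma) was lost in 8 of 15 alternative fits, among them those without loaded Nb3-alloy replicate 1 (0.78, adjusted p = 0.0817) or 3 (0.66, adjusted p = 0.102), or non-loaded Nb3-alloy replicate 2 (0.85, adjusted p = 0.0626) or 3 (0.55, adjusted p = 0.123). Adamts6 was called at 0.82, from means of 1.79 to 3.86 FPKM, and lost the call in 5 of 15 alternative fits. Among these were the fits without loaded replicate 3 (0.63, adjusted p = 0.0949) or non-loaded replicate 2 (0.84, adjusted p = 0.0542) or 3 (0.59, adjusted p = 0.11). Adamts13, the protease of von Willebrand factor, stood at 4.41, 1.64 and 3.22 FPKM in loaded and at 7.53, 5.05 and 3.12 FPKM in non-loaded Nb3 alloy (-0.61, adjusted p = 0.334 by limma). Adamts17 and Adamts18 were not called (0.51 and 0.42).

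The ADAMTS genes under the filter were 4 in number. Adamts16 had 9, 130 and 4 reads in the loaded Nb3-alloy libraries, 0 in the non-loaded ones, and 6 and 1 in replicate 2 of non-loaded and of loaded cpTi, so its reads came mostly from replicate 2 of loaded Nb3 alloy. Adamts19 had 20 reads in all, 15 and 5 of them in loaded Nb3-alloy replicates 2 and 3. Adamts8 and Adamts20 reached at most 0.294 and 0.958 FPKM. Without the filter Adamts8 was called higher with loading beside the Nb3 alloy (0.24, adjusted p = 0.0131 by limma). The remaining untested MMP, Mmp21, had 11 reads over 12 libraries.

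Loading beside titanium gave no call among the 34 members. In that comparison 0.00655% of tested genes were called (1 gene, by limma), 5 members had an unadjusted p under 0.05 (as had 1062 of all tested genes, 6.96%), and limma-voom on the reads also called 0 members. The median log2 difference was 0.27 over the members and -0.03 over all tested genes, and the members' differences ran from -0.46 to 1.48. Adamts18 was at the top of that range. It stood at 10.8, 8.42 and 7.81 FPKM in loaded and at 1.48, 2.85 and 3.70 FPKM in non-loaded cpTi, with no overlap (1.48, SE 0.58, adjusted p = 0.672 by limma). In 9 members the loaded cpTi libraries all lay above the non-loaded ones, and in none did they all lie below. Among all tested genes, 7% (1069) lay all above and 9.4% (1435) all below in the same way, and none of the 9 members was called. Besides Adamts18 these were Mmp16 (1.10), Mmp19 (0.33), Mmp24 (0.19), Adamts7 (0.31), Adamts9 (0.65), Adamts12 (0.52), Adamts14 (0.54) and Adamts17 (0.76).

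**Figure D4:**
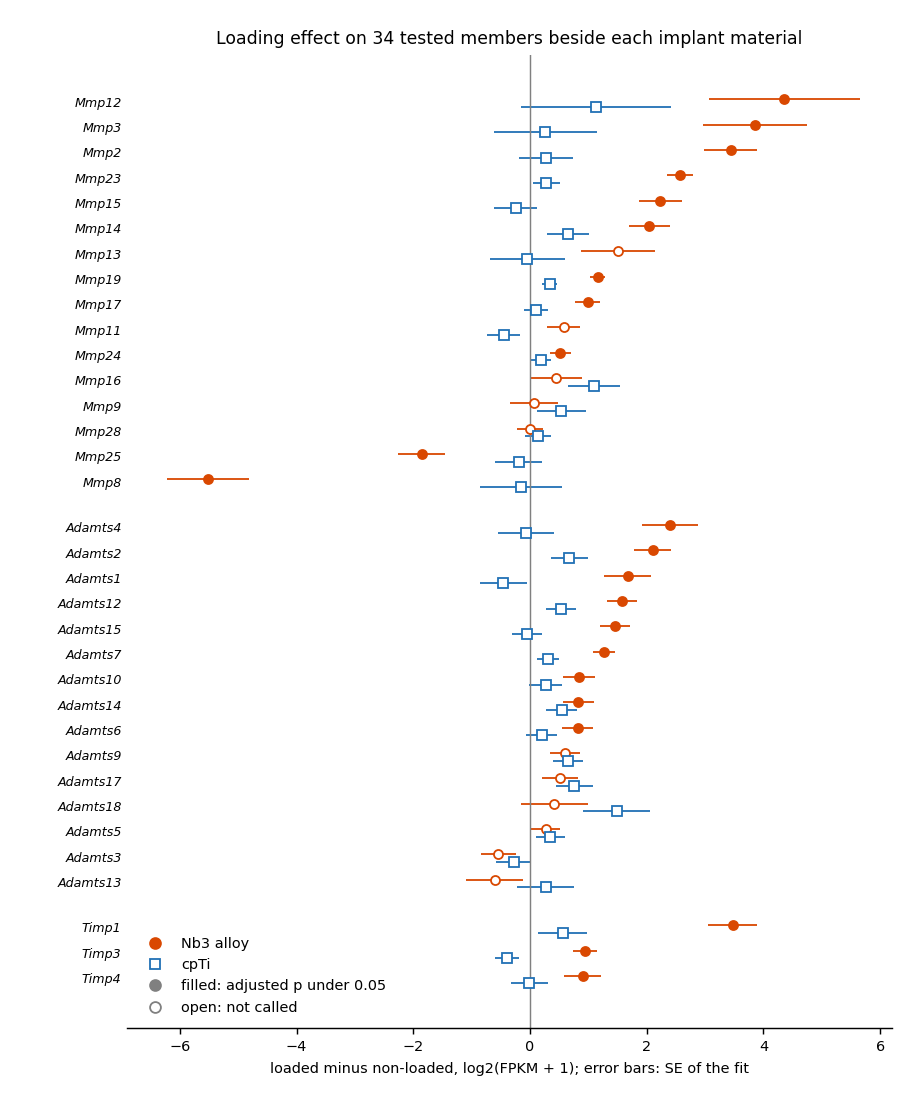
Log2 difference with loading for the 34 tested members beside the Nb3 alloy (circles) and beside cpTi (squares), with the SE of the fit as bars and filled symbols for adjusted p under 0.05. All cpTi symbols are open, whereas 23 Nb3-alloy symbols are filled, of which Mmp8 and Mmp25 lie to the left of 0.

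The material comparison under loading shares the loaded Nb3-alloy libraries with the loading comparison, so its values are given side by side and not as a second line of evidence. In it 18 of the 34 members were called, 16 higher and 2 lower in Nb3 alloy, while 33.6% of all tested genes were called (14.7% higher, 18.9% lower). Scaling to total reads gave 1357 higher and 3671 lower genes in place of 2239 and 2884, and 15 higher and 2 lower members. Mmp8 stood at -5.00 and Mmp25 at -1.40. The Mmp25 call was lost without loaded cpTi replicate 1 (-1.34, adjusted p = 0.0652) or 3 (-1.43, adjusted p = 0.0511), or loaded Nb3-alloy replicate 3 (-1.02, adjusted p = 0.067). Timp1 was higher by 2.27, Mmp2 by 2.41, Mmp23 by 1.71, Mmp15 by 1.55 and Mmp14 by 1.51. Mmp12 (2.47, adjusted p = 0.164 by limma), Mmp13 (0.93, adjusted p = 0.285) and Mmp9 (-0.17, adjusted p = 0.786) were not called.

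Without loading the 2 materials gave no call among the members or among all tested genes (0%, by limma). An unadjusted p under 0.05 was reached by 2 members and by 470 of all tested genes (3.08%), and limma-voom on the reads called 0. The lowest of the 34 differences, Nb3 alloy minus cpTi, was that of Mmp15 at -0.92, from means of 2.00 and 4.93 FPKM. In 3 members, Mmp23, Timp3 and Adamts1, the libraries beside the Nb3 alloy all lay below those beside cpTi (-0.59, -0.28 and -0.73), as they did for 4.41% of all tested genes, with 2.88% all above. Adamts1 stood at 4.54, 7.50 and 4.46 FPKM beside the Nb3 alloy and 11.0, 9.01 and 8.70 FPKM beside cpTi (adjusted p = 1 by limma).

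Whether loading acted differently in the 2 materials was tested directly as an interaction. It was called for 12 of 34 members, 11 positive and 1 negative, while 20.2% of all tested genes were called (8.42% positive, 11.8% negative). With scaling to total reads, 843 positive and 2386 negative genes took the place of 1285 and 1804. The 12 were Mmp2, Mmp8, Mmp15, Mmp19, Mmp23, Timp1, Timp3, Adamts1, Adamts2, Adamts4, Adamts7 and Adamts15. The count was 8 without loaded cpTi replicate 1 or non-loaded Nb3-alloy replicate 3, with no gene added to the 12. Mmp14 (1.39, adjusted p = 0.0754 by limma) and Mmp25 (-1.66, adjusted p = 0.0625), though called beside the Nb3 alloy and not beside cpTi, were not shown to differ between the materials. The same holds for Mmp3, Mmp12, Mmp17, Mmp24, Adamts6, Adamts10, Adamts12, Adamts14 and Timp4.

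The spread among the 3 loaded Nb3-alloy libraries differed between members, and some members had the order of certain cell markers. Replicate 2 stood apart for bone cells: the median deviation of osteoblast markers from the non-loaded Nb3-alloy mean was -0.66 in replicate 2 and 1.25 and 1.78 in replicates 1 and 3 (log2 scale). For osteoclast markers it was 0.20, 2.22 and 1.33, and for osteocyte markers -0.62, 1.06 and 1.28, in the same order. Mmp13, Mmp9, Mmp16, Adamts18 and Adamts10 were among the members lowest in replicate 2. Fibroblast and ligament markers were highest in that library (3.37, against 2.65 and 2.22), as were Mmp2, Mmp14, Mmp15, Adamts2, Adamts12 and Adamts15. Other marker lists were highest there too, among them smooth muscle and pericyte, endothelial, T cell, skeletal muscle and epithelial markers. The order of these members was therefore not particular to the fibroblast list. Of the 34 members, 15 were highest and 11 lowest in replicate 2, so the library was not low throughout. With 3 libraries in the group these orders are a description without a test.

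**Figure D5:**
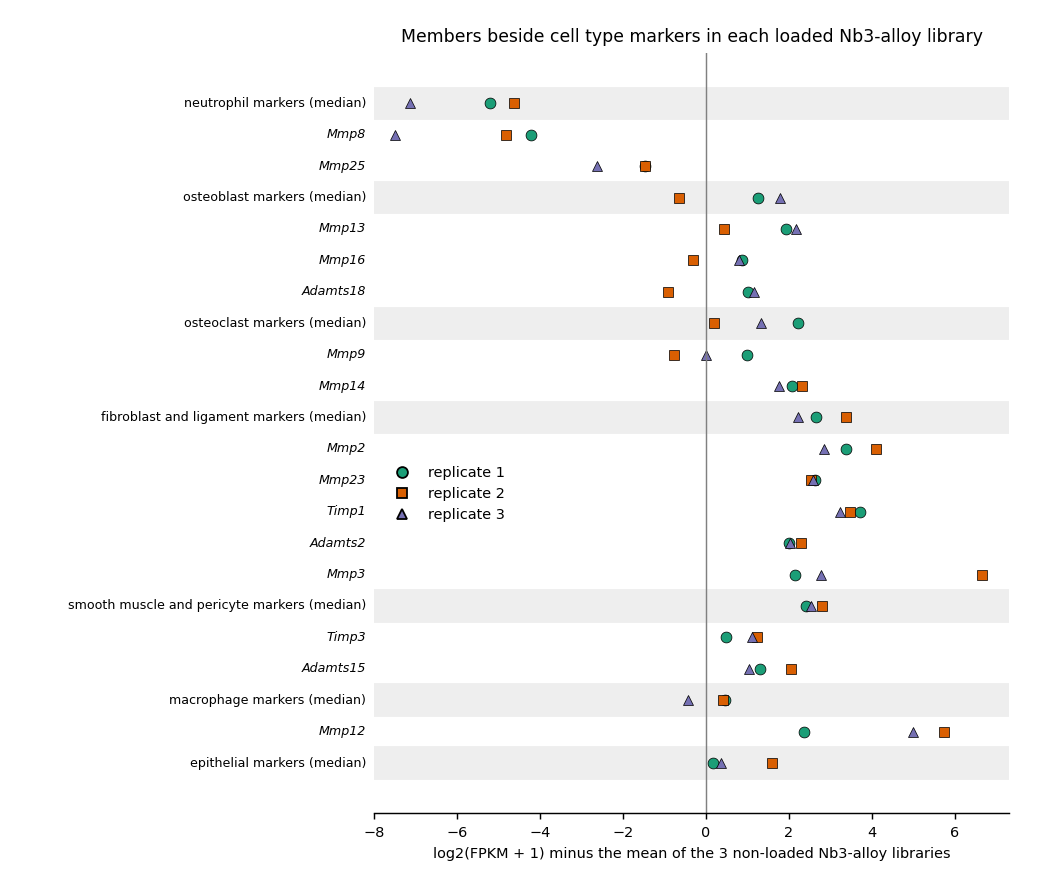
Log2(FPKM + 1) of members, and the median of cell type marker lists (grey bands), in each loaded Nb3-alloy library minus the mean of the 3 non-loaded Nb3-alloy libraries. Members stand under the list of a cell type they are known from as background. Replicate 2 (squares) is low for osteoblast markers, Mmp13, Mmp16 and Adamts18. It is high for fibroblast markers and Mmp2, but not the highest for Timp1, and by a small margin the lowest for Mmp23.

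Members and markers were also compared in the 9 other libraries, over which 12 pairs of a member and a marker list were computed. Of the members named above for their replicate order, Mmp15, Mmp16, Mmp23, Adamts10, Adamts12, Adamts15 and Adamts18 were not among these pairs. These libraries share no sample with the loaded Nb3-alloy group. Mmp2 followed the 11 fibroblast and ligament markers (Pearson's r = 0.939, exact permutation p = 4.41e-05, adjusted 0.000529; Spearman's rho = 0.967, exact permutation p = 0.000165, adjusted 0.00198; n = 9). The r was 0.879 without the 2 libraries farthest from the median, and 0.908 on deviations from the group means. Adamts2 followed the same markers (r = 0.839, exact permutation p = 0.00911, adjusted 0.0351; rho = 0.90, exact permutation p = 0.00203, adjusted 0.0122), with r = 0.724 without the 2 farthest libraries and 0.869 within groups.

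Relations with neutrophil markers were weaker across these 9 libraries. Mmp8 and the neutrophil markers had r = 0.752 (exact permutation p = 0.0354, adjusted 0.056) and rho = 0.333 (exact permutation p = 0.385, adjusted 0.447), and r was -0.19 without the 2 farthest libraries, so the relation rests on those. Mmp25 gave r = 0.788 (exact permutation p = 0.0128, adjusted 0.0351) and rho = 0.533 (exact permutation p = 0.148, adjusted 0.221), with r = 0.07 without them. Mmp9 and the osteoclast markers gave r = 0.75 (exact permutation p = 0.0212, adjusted 0.0423) and rho = 0.783 (exact permutation p = 0.0172, adjusted 0.0517), with r = 0.16 without them. Mmp14 gave r = 0.815 with osteoblast markers (exact permutation p = 0.00813, adjusted 0.0351) and rho = 0.75 (exact permutation p = 0.0255, adjusted 0.0612), with r = 0.49 without the 2 farthest. Mmp13 and osteoblast markers gave r = 0.136 (exact permutation p = 0.727, and -0.81 without the 2 farthest), and Mmp12 and macrophage markers r = 0.16 (exact permutation p = 0.691). Mmp14 and osteoclast markers gave r = 0.772 and rho = 0.567 (adjusted exact permutation p = 0.0351 and 0.207), with r = 0.25 without the 2 farthest. Timp1 and fibroblast markers gave 0.703 and 0.783 (adjusted exact permutation p = 0.056 and 0.0517), with r = 0.596 without the 2 farthest and 0.475 on deviations from group means. The remaining pairs were Mmp9 with neutrophil markers (r = -0.06, rho = -0.37, adjusted exact permutation p = 0.897 and 0.447) and Timp3 with smooth muscle markers (0.586 and 0.717, adjusted exact permutation p = 0.134 and 0.0737). On deviations from group means, r with neutrophil markers was 0.741 for Mmp8, 0.791 for Mmp25 and 0.276 for Mmp9. With osteoclast markers it was 0.702 for Mmp9 and 0.666 for Mmp14, and with osteoblast markers 0.794 for Mmp14 and 0.0763 for Mmp13. For Mmp12 with macrophage markers it was 0.0657, and for Timp3 with smooth muscle markers 0.839.

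Genes that act with these families were read from lists, against 20.7% higher and 25.2% lower among all tested genes. In the same comparison all 11 fibroblast and ligament markers (median 2.43) and all 7 smooth muscle and pericyte markers (median 2.36) were higher, and their part in these list counts was not tested. Among activators and inhibitors outside the families, 16 of 25 tested were higher and 1 lower with loading beside the Nb3 alloy. The syndecan Sdc4 (1.92), the collagen-binding Sparc (2.17), the ADAMTS-like genes Adamtsl4 (1.61) and Adamtsl5 (1.46), the plasminogen activator Plat (3.10) and the proprotein convertase Pcsk5 (1.43) rose. Serpinb2, an inhibitor of plasminogen activators, fell by 1.16. Of 17 other extracellular proteases 12 were higher and 1 lower, among them Htra1 (2.45), Htra3 (2.65), the cathepsin Ctsl (1.89), Adam15 (1.59) and the fibroblast protease Fap (1.55). Cma1, a mast cell protease outside the first 6 of its list, was the lower one (-2.56), and all 5 mast cell markers were lower.

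Of the substrates, 15 of 17 tested were higher, with a median of 1.84. Elastin Eln (3.09), the collagen genes Col3a1 (3.94), Col4a1 (3.23) and Col4a2 (2.93), decorin Dcn (2.41) and laminin Lama4 (1.89) led by p. Among known inducers of MMP genes 6 of 16 were higher, namely Il1b (2.83), Cebpb (1.60), Jun (1.42), Tnf (1.41), Ets2 (1.22) and Stat3 (0.54). The AP-1 partners Fos (-0.27), Fosb (0.02), Fosl1 (0.33), Fosl2 (0.52) and Jund (0.47) were not called. Beside cpTi, loading gave 0 calls in each of these 4 lists. In the order given, 4 of 25, 3 of 17, 6 of 17 and 0 of 16 genes had an unadjusted p under 0.05 by limma. Among all tested genes that share was 6.96%. Of the genes in these lists, 8 are also among the cell type markers used above.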

How the data were processed

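Polyadenylated RNA of 12 libraries was analysed as 1 table of FPKM deposited by the authors, with gene positions and lengths per the file headers. Tools listed in the submitters' processing notes, with no roles, are DESeq2 1.20.0, featureCounts 1.5.0-p3, HISAT2 2.0.5, fastp and CASAVA 1.8. For the build and for strand, the answer is not given in the sources used here. Values were multiplied by gene length and divided by the worth of 1 read, fitted for each library. The fit began by taking the smallest product above 0 as 1 read. It returned whole reads (within 0.01 read) for 100% of values above 0, and these were used for read counts, total-read scaling and limma-voom. The fitted worth of 1 read also gave the library sizes used in limma-voom.

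In R 4.3.3, limma 3.58.1 (trended, robust) was run on log2(FPKM + 1), over 15268 genes with at least 1 FPKM in at least 3 libraries. The fold scale log2(FPKM + 1) understates changes of low genes. All 12 libraries entered 1 fit with 8 residual degrees of freedom, and 5 comparisons were made. The script was tested on simulated data. Members, marker lists and partner lists were chosen with earlier results of these data known. Text-named members were the 10 MMPs and 8 ADAMTS proteases with the highest mean level, the TIMPs, and called members with a log2 difference of at least 1. Others are named to account for every member. Partner genes are up to 6 called per list by smallest p. Lower partners and the uncalled AP-1 genes were named after their values were seen. The alternatives tried were the pseudocount, filter, scaling, moderation, model, replicate block and each library left out.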

Additional observations from a re-analysis of the deposited data

Results flagged for a closer look

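The effect of loading differed between the 2 materials in 12 members, by a test of the difference itself (the interaction term in limma, adjusted p under 0.05, 3 libraries per group). Of all tested genes 20.2% (3089) were called in that test, as were 10 of 12 neutrophil and 7 of 7 erythroid markers (negative) and 9 of 11 fibroblast and ligament and 6 of 7 smooth muscle and pericyte markers (positive). The part of these cell types was not tested. The difference is the loading effect beside the Nb3 alloy minus that beside cpTi, on the log2(FPKM + 1) scale. Among MMPs it was 2.29 for Mmp23 (adjusted p = 0.000949), -5.36 for Mmp8 (adjusted p = 0.00456), 3.16 for Mmp2 (adjusted p = 0.00726), 2.47 for Mmp15 (adjusted p = 0.00794) and 0.82 for Mmp19 (adjusted p = 0.00954). The inhibitors Timp1 and Timp3 differed by 2.91 (adjusted p = 0.00684) and 1.33 (adjusted p = 0.011). Among ADAMTS proteases the difference was 1.51 for Adamts15 (adjusted p = 0.0142), 2.13 for Adamts1 (adjusted p = 0.0231), 2.47 for Adamts4 (adjusted p = 0.0274), 0.96 for Adamts7 (adjusted p = 0.03) and 1.43 for Adamts2 (adjusted p = 0.0452). Of 20 alternative fits, the call was lost in 13 for Adamts2, 11 for Adamts7, 7 for Adamts4 and 2 for Adamts1, and in 0 for the other 8.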

How the results depend on the processing

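No named difference changed sign under an alternative fit in which it was called. The count of members called with loading beside the Nb3 alloy ran from 17 to 23 with each library left out and from 18 to 24 under other settings, against 23. For the material comparison under loading it ran from 15 to 18 and from 16 to 20, against 18, and for the interaction from 8 to 13 and from 9 to 13, against 12. It was 0 in every fit for loading beside cpTi and for the materials without loading. With the replicate block the count was 20 for loading beside the Nb3 alloy, 19 for the materials under loading, 10 for the interaction, and 0 for both others. Same-numbered libraries had correlations of -0.25 to 0.12 in their deviations from group means, so the numbers were not taken to pair them. The Mmp12 and Mmp3 calls beside the Nb3 alloy were lost by limma-voom (adjusted p = 0.126 and 0.14). FPKM is relative to the size that the deposited values carry for each library, which is not its reads on genes. Genes under about 1 FPKM rest on few reads.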
